A study of Homo sapiens with 2 samples.

Results

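The transcripts of 5 WNT ligands, Wnt1, Wnt3a, Wnt5a, Wnt5b and Wnt10b, were followed in HepG2 cells, a human hepatoma line, with and without the aqueous extract of Moringa oleifera seeds (MOES). The ligands are all the genes of that family, picked by symbol, among the 84 genes of lipid metabolism on an adipogenesis PCR array, and they occupy the last 5 wells of its row G. The array was run to see whether the extract, taken as a source of plant miRNAs, alters such transcripts. Control cells received no extract, and the MOES cells were kept in it for 72 h. The sample title gives a dose of 5 mg/mL and the protocol in the labels 2.5 mg/mL for the cells run on the array, and which of these the values belong to is not settled. Each group held 1 sample, so no value below has a replicate or a p-value, and the treated column, headed only as a numbered group, was taken as MOES because no other sample remains.

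WNT proteins are secreted, lipid-modified signals that bind Frizzled receptors on nearby cells. Wnt1, Wnt3a and Wnt10b are known as canonical ligands, which act through Frizzled and the coreceptors Lrp5 and Lrp6 to stabilise beta-catenin, the partner of the transcription factor Tcf7l2. Wnt5a and Wnt5b are known mainly for non-canonical signalling, which does not need beta-catenin. In fat tissue, canonical signals, Wnt10b among them, hold preadipocytes back from becoming adipocytes, and in the liver WNT signals pattern metabolism across the lobule.

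The measurement was the threshold cycle (Ct), the PCR cycle at which fluorescence passes a set level, so that a later Ct means less template. The highest value in the tables was 35, which is read here as a ceiling. Each Ct was first set against the mean Ct of B2m, Gusb and Hsp90ab1, and the fold change doubles for every cycle by which a well came earlier in MOES than in the control on that scale. These reference genes differed between the samples by at most 0.02 cycles, far less than the SD between 2 wells given below. Their MOES wells were recorded with decimals, whereas every MOES gene well under 35 was a whole number. The part of this in the fold changes was not tested. Actb and Gapdh, also on the plate as reference genes, were later in MOES, with Ct values of 34.05 and 28.46 in the control and 35 for both in MOES. The 3 wells of the positive PCR control (PPC) were at 35 in both samples, so whether the PCR worked in wells at 35 was not shown, and a bound below holds only if it did. The 3 reverse transcription control (RTC) wells of the control sample put the SD of a gap between 2 wells at 0.530 cycles. In MOES all 3 were at 35, and their part in the lower values was not tested.

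The tables name genes in the mouse style, their descriptions are those of the mouse genes and the genomic DNA control is called MGDC, whereas the labels name the human array. Whether human or mouse assays filled the wells is therefore not settled, and this holds for the ligands as for the reference genes behind every fold change. Of 5 hepatocyte markers listed for a check of the cells, Agt and Nr0b2 were on the array, with control Ct values of 33.91 and 28.76. The 5 adipocyte markers Cfd, Adipoq, Retn, Fabp4 and Lep lay between 26.24 and 33.89. The Ct of Agt, angiotensinogen, a major product of liver cells, was later than each of them. Its gap to Lep, at 33.89, was far smaller than the SD of 0.530 cycles. Nr0b2 lay within the range of the adipocyte markers, earlier than Fabp4 and Lep and later than Cfd, Adipoq and Retn. Assays are not calibrated against each other, so an order of Ct values between genes is an order of wells and not of transcripts.

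The RefSeq sequences upstream of WNT3A and WNT5A are shown because these ligands alone were read below the ceiling in both samples, one of them with the lowest fold change of all genes so read and the other close to no change. Each is the 250 bases before a transcription start of the table for GRCh38.p14, written 5′ to 3′ on the strand of the gene, with the GC box GGGCGG or its reverse complement in capitals. WNT3A lies on the plus strand at chr1:228006748-228006997. WNT5A lies on the minus strand, with an upstream start at chr3:55487307-55487556 and a downstream one at chr3:55481399-55481648.
WNT3A: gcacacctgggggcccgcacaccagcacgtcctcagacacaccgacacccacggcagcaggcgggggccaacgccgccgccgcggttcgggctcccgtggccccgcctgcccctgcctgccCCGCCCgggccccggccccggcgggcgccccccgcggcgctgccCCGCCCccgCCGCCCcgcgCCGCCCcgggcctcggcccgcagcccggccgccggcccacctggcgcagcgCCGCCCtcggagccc
WNT5A, upstream start: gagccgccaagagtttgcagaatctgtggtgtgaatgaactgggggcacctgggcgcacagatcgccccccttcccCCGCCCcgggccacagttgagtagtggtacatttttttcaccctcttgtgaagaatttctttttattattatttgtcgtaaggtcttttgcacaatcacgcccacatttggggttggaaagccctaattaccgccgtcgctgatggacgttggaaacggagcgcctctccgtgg
WNT5A, downstream start: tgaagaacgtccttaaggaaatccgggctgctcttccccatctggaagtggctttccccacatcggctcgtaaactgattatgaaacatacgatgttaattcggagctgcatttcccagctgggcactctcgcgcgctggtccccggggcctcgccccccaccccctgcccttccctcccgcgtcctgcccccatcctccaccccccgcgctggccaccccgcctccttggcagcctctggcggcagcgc
The WNT3A window had a GC content of 86.0%, higher than 99.8% of the 35116 windows in the table, and held 5 GC boxes and 38 CpG dinucleotides. The windows of WNT5A had a GC content of 52.8% and 64.4%, against a median of 58.0% over all windows, and held 1 and 0 GC boxes. They held 14 and 18 CpG dinucleotides, against a median of 11 over all windows. A GC box was found in 42.6% of all windows. For the other ligands, the WNT1 window had 78.4% GC, 2 GC boxes and 29 CpG dinucleotides. Those of WNT5B had 54.8% and 50.8% GC, with 0 and 2 GC boxes and 10 and 7 CpG dinucleotides. WNT10B was not matched. The TCF/LEF motif, searched on both strands as CTTTGAT, was in 0 of the 6 windows of these ligands and in 2.26% of all windows. The array measures transcripts only, so these letters describe the genes and not the change.

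In the control sample, 4 of the 5 ligands had a Ct under 35. Wnt3a, the ligand used most often to switch on beta-catenin in culture, had the earliest well, with a Ct of 27.82, the 17th earliest of the 84 gene wells. Wnt5a followed at 31.86, Wnt10b at 32.41 and Wnt1, first known as a site of viral insertion in mouse mammary tumours, at 33.26. Wnt5b was at 35. The gap of 0.55 cycles between Wnt5a and Wnt10b was close to the SD of 0.530 cycles, and that of 0.85 cycles between Wnt10b and Wnt1 exceeded it.

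In MOES, 2 of the 5 ligands had a Ct under 35. Wnt5a was then the earliest, with a Ct of 32. Wnt3a was at 34, and Wnt10b, Wnt1 and Wnt5b were at 35 and cannot be put in order. The order of the wells of Wnt3a and Wnt5a was thus turned around, from Wnt3a 4.04 cycles ahead in the control to 2 cycles behind in MOES.

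**Figure D1:**
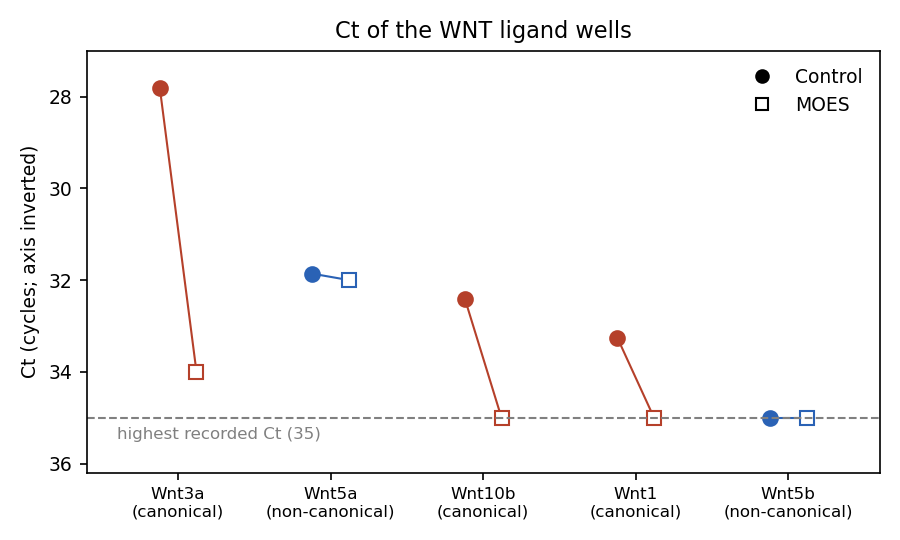
Ct of each WNT ligand well in the control sample (filled circles) and in MOES (open squares), on an inverted axis in cycles so that more template is higher, with canonical ligands in red, non-canonical ligands in blue and the highest recorded Ct of 35 dashed. Wnt3a moved from 27.82 to 34, Wnt5a from 31.86 to 32, and Wnt10b, Wnt1 and Wnt5b ended at 35.

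All 3 canonical ligands were lower in MOES, past the limit of 0.5 that the study's methods set for a fold change. Of the non-canonical ligands, Wnt5a was not, and Wnt5b could not be read, being at the ceiling in both samples. In a bulk sample, fewer cells with a transcript and less of it per cell cannot be told apart. The count of 3 of 5 ligands below 0.5 (60.0%) stands beside 57 of all 84 genes (67.9%), so it is not a count particular to WNT ligands. Above the upper limit of 1.5 were 0 of the 5 ligands and 8.33% of all genes. The median log2 fold change was -1.73 over the 5 ligands and -1.77 over all genes, counting a Ct of 35 as a value.

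Wnt3a went from a Ct of 27.82 to 34, or from 0.134 to 0.00186 of the level of the reference genes. Its fold change was 0.0139, a level 72.0-fold lower and a log2 fold change of -6.17. Every MOES gene well under 35 was recorded as a whole number, 59 of 59, so the fold change of Wnt3a is known only to that precision. If the recorded 34 is a rounded value, the level lay between 50.9-fold and 102-fold lower. Of the 59 genes with both wells under 35, Wnt3a had the lowest fold change, next to Adig, adipogenin, at a log2 fold change of -5.89. The difference between Wnt3a and Adig, under a cycle, is smaller than the precision of the MOES wells. Genes at 35 in MOES are outside this ranking. Of these, Egr2 and Tsc22d3 had recorded bounds below the value of Wnt3a, at log2 fold changes of -6.81 or lower and -6.67 or lower.

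Wnt10b, the ligand best known for holding back fat cell formation, went from a Ct of 32.41 to 35, a level at least 5.98-fold lower. Wnt1 went from 33.26 to 35 and was at least 3.32-fold lower. If a recorded 35 can stand for 34.5, these bounds become 4.23-fold and 2.35-fold, both still past the limit. The ceiling left Wnt10b 2.59 cycles and Wnt1 1.74 cycles in which a lower level could be read, against 7.18 cycles for Wnt3a. Both used all of that room, so the data do not say whether their change was smaller than that of Wnt3a.

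Wells that reached 35 in MOES alone made up 24.4% of the 78 genes under 35 in the control, 19 genes in all. Among the ligands they were 2 of 4. They were more frequent where the control well was late, with 11 of the 17 genes whose control Ct lay over 32 and under 35, Wnt10b and Wnt1 included.

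Wnt5a, a ligand of the non-canonical branch, went from a Ct of 31.86 to 32, or from 0.00815 to 0.00743 of the level of the reference genes. Its fold change was 0.914 and its log2 fold change -0.13, less than the SD of 0.530 cycles. With the recorded 32 as a rounded value, the fold change lay between 0.646 and 1.29, an interval that holds both directions. Of the 59 genes with both wells under 35, 2 had a smaller change in absolute size. Such a place is finer than the precision of the MOES wells, since 11 of the 59 genes, Wnt5a among them, lay within 0.530 cycles of no change. The value of 32 was shared by 21 of the 84 gene wells of the MOES sample, and the part of this heap in the small change of Wnt5a was not tested. Wnt5b, at 35 in both samples, gives no information on change.

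**Figure D2:**
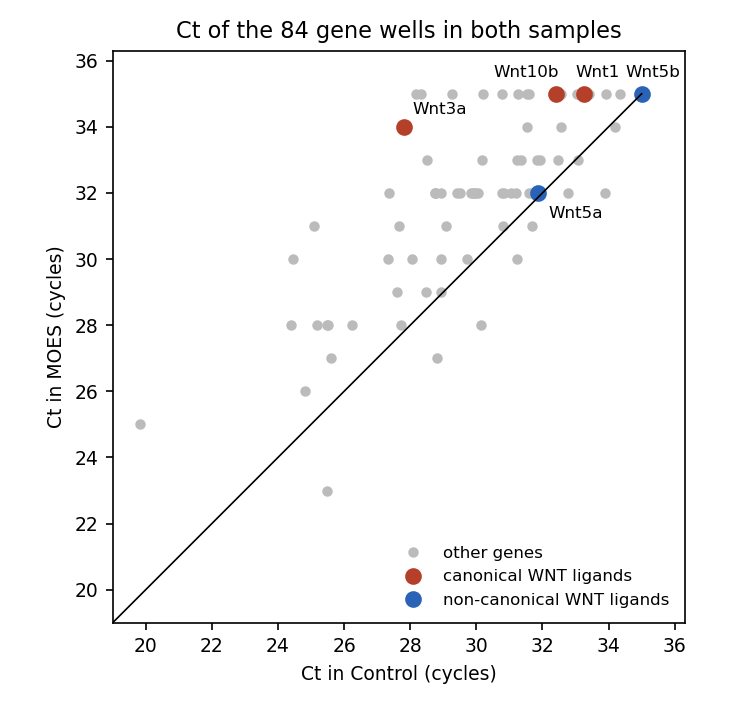
Ct of the 84 gene wells in the control sample (horizontal axis, cycles) and in MOES (vertical axis, cycles), with the line of equal Ct, canonical WNT ligands in red, non-canonical ones in blue and other genes in grey. Wnt3a lies 6.18 cycles above the line, Wnt5a 0.14 cycles above it, and Wnt1 and Wnt10b lie on the row of wells at 35.

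A difference between 2 ligands does not depend on the reference genes, since these enter both fold changes alike. Between Wnt3a and Wnt5a, the only pair with both wells read in both samples, the log2 fold changes differed by 6.04, with Wnt3a the lower. An SD for such a difference between 4 single wells, from the RTC wells of the control, is 0.750 cycles. With the recorded values as they are, Wnt10b was lower than Wnt5a by 2.45 or more and Wnt1 by 1.60 or more on the log2 scale. If both MOES wells of a pair were rounded by 0.5 cycle against the difference, it becomes 5.04 for Wnt3a, and 1.45 or more for Wnt10b and 0.60 or more for Wnt1. That of Wnt3a is then still over 2 such SDs, and the least values for Wnt10b and Wnt1 are not. The RTC wells describe repeat wells of 1 plate and no biological variation. Whether Wnt3a and the other canonical ligands differed from each other cannot be read, because the changes of Wnt10b and Wnt1 have no known upper limit.

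By branch, the canonical ligands had a median log2 fold change of -2.58 and the non-canonical ligands one of -0.06, a difference of -2.52 counting a Ct of 35 as a value. The non-canonical median rests on Wnt5a and on a Wnt5b well at the ceiling, so the contrast of branches is in effect that of the canonical ligands with Wnt5a. Leaving out wells at 35 leaves Wnt3a against Wnt5a and their difference of 6.04. With Ct values above 32 set to 32, the difference between the branches was 0.07, since Wnt1 and Wnt10b then have no change to show and their log2 fold change is 0.01 each. Wnt3a was still lower there, by 4.17 on the log2 scale.

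Of the 13 other genes of the WNT pathway listed for the comparison, 7 were on the array, and 4 of these (57.1%) lay below 0.5, beside the share of 67.9% over all genes. Among the secreted antagonists, Sfrp1, a decoy for WNT proteins, went from a Ct of 29.42 to 32 and was 5.94-fold lower. Sfrp5, of the same family, went from 31.04 to 32 with a fold change of 0.518, just short of the limit. Dkk1, which blocks Lrp5 and Lrp6, was at 35 in both samples. Lower values were thus recorded for an antagonist as well as for ligands.

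On the receiving side, the coreceptor Lrp5 went from a Ct of 27.33 to 30 and was 6.32-fold lower. Tcf7l2, the factor through which beta-catenin acts on transcription, went from 28.77 to 32 and was 9.32-fold lower. It was the lowest of the 5 genes of the list under 35 in both samples. Axin1, a scaffold of the complex that degrades beta-catenin, was at 35 in both samples. Ccnd1, cyclin D1, a known target of beta-catenin, went from 30.79 to 32 with a fold change of 0.435. Of the 5 genes of the list under 35 in both samples, none lay above 1.5 or had a fold change as low as that of Wnt3a. Axin1 and Dkk1 give no information on change.

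The MOES values of these genes were few. Of the 12 WNT ligands and pathway genes on the array, 10 had a MOES Ct of exactly 32 or 35, as had 46 of all 84 genes (54.8%). Wnt5a, Sfrp1, Sfrp5, Tcf7l2 and Ccnd1 shared the value of 32, so the differences between their fold changes come from their control wells alone. The same holds for Wnt1 and Wnt10b at 35.

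**Figure D3:**
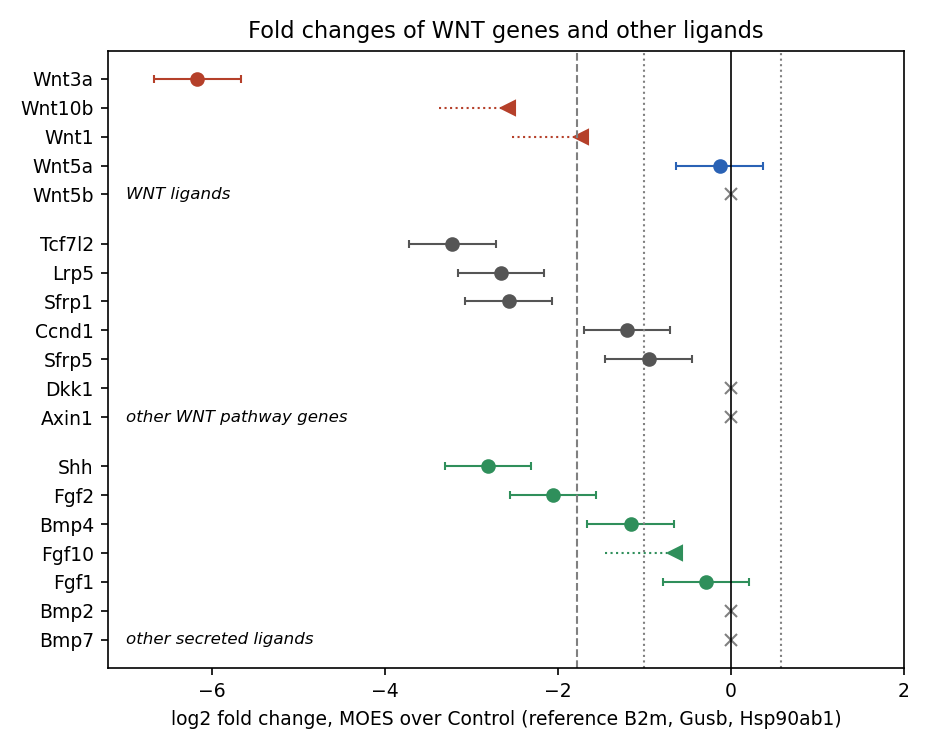
Log2 fold change of MOES over the control for the WNT ligands (canonical red, non-canonical blue), the other WNT pathway genes on the array (grey) and other secreted ligands (green). Bars span 0.5 cycle either way for the whole-number MOES wells, triangles with dotted tails are upper bounds with the MOES well at 35, crosses are genes at 35 in both samples, dotted lines mark the limits of 0.5 and 1.5 and the dashed line marks the median of all genes, -1.77. Wnt3a, at -6.17, lies apart from the other genes shown with both wells under 35. Genes drawn as triangles or crosses have no known place relative to it.

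The array held 7 other secreted ligands that act in fat cell formation, namely the bone morphogenetic proteins Bmp2, Bmp4 and Bmp7, the fibroblast growth factors Fgf1, Fgf2 and Fgf10, and Shh, sonic hedgehog. Of these, 3 lay below 0.5 (42.9%), with Shh the lowest recorded at a log2 fold change of -2.81, and 0 lay above 1.5. Their median log2 fold change was -0.65. Bmp2 and Bmp7 were at 35 in both samples, as Wnt5b was, and Fgf10 reached 35 in MOES alone, as Wnt1 and Wnt10b did.

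Fgf1 had the pair of Ct values closest to that of Wnt5a, 31.7 and 32, at a distance of 0.160 cycles over both samples, the shortest among the 79 genes that are not WNT ligands. For Wnt3a, the closest was Egr2, an early response transcription factor, at 28.18 and 35 and a distance of 1.06 cycles. With only 2 samples, such a likeness compares pairs of wells. Pparg, the master regulator of adipocytes that canonical WNT signals hold down, went from a Ct of 19.82 to 25 and was 36.0-fold lower. Cebpa, its partner in that programme, went from 31.2 to 32 with a fold change of 0.578. Pparg and the canonical ligands all lay below 0.5, as did 67.9% of all genes. A link between them was not tested.

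Within the plate, the median log2 fold change of the wells of row G was -2.565, the lowest of the 7 rows of gene wells, whose highest median was -0.025. The 7 wells of row G that hold no WNT ligand were all below 0.5, with a median of -3.06. The part of the plate position in the values of the ligands was not tested. The MGDC well, which reports genomic DNA, crossed the threshold at cycle 29.9 for control cells and at 29.56 for MOES, earlier than 4 of the 5 ligands in the control and all 5 in MOES. It was likewise earlier than 57.1% and 82.1% of all gene wells, and its part in the late ligand wells was not tested.

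The recorded direction of a ligand depended on the reference, which adds the same amount to each. Relative to the median Ct of all gene wells, which removes a shift of 1.5 between the sample medians, Wnt3a was at -4.67 and Wnt5a at 1.37 on the log2 scale. With Actb alone, itself at the ceiling in MOES, Wnt3a was at -5.23 and Wnt5a at 0.81, and both may lie higher. With Gapdh alone, at the ceiling in MOES, the recorded value of every ligand lay above 0, with Wnt3a at 0.36 and Wnt5a at 6.40. Both may lie higher. That of Wnt3a is less than the 0.5 cycle to which its MOES well is known, so its direction is not settled. The directions of Wnt1, Wnt10b and Wnt5b against Gapdh are unknown, since these wells and that of Gapdh were at 35 in MOES. Among these references, Wnt5a was little changed only against B2m, Gusb and Hsp90ab1. The recorded value of Wnt1 was no longer below 0.5 with Actb alone, with all 5 reference genes and with the median Ct, at a log2 fold change of -0.79, -0.24 and -0.23. Against the median Ct this is an upper bound, so Wnt1 may still lie below 0.5. Against Actb or all 5 genes, the places of Wnt1 and Wnt10b are unknown, since ligand and reference were both at the ceiling. The distance between Wnt3a and Wnt5a was 6.04 under each of these references.

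**Figure D4:**
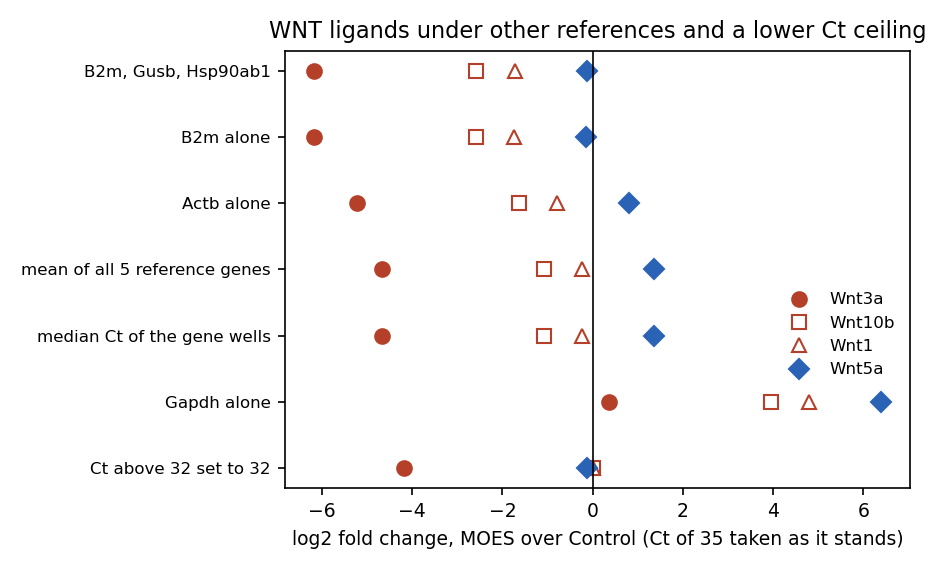
Log2 fold change of MOES over the control for Wnt3a, Wnt10b, Wnt1 and Wnt5a with B2m, Gusb and Hsp90ab1 as reference, under 5 other references, and with Ct values above 32 set to 32. Open symbols are ligands at 35 in MOES, and with Actb, Gapdh or all 5 genes as reference the shift is a minimum. The point of Wnt3a runs from -6.18 with B2m alone to 0.36 with Gapdh alone and that of Wnt5a from -0.14 to 6.40, while Wnt10b and Wnt1 have no known place relative to Wnt3a.

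The study names Wnt3a and Wnt10b as predicted targets of Moringa miRNAs in both human and mouse, and does not so list Wnt1, Wnt5a or Wnt5b. Its human predictions are tabulated for the genes it called changed in these cells, so the lower values of Wnt3a and Wnt10b are no independent evidence on them.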

How the data were processed

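Complementary DNA from 2 HepG2 samples, 1 a group, was amplified on a SYBR Green array of 96 wells. Per the labels, the manufacturer's web software made the tables. The authors deposited the Ct, a score in cycles without normalization, as an average over an unstated number of wells with empty SD columns. The delta Ct that they deposited is a log2 value of opposite sign, and their ratio to the reference genes is 2 to the power of minus delta Ct. The deposited table of the authors' own fold changes was not used. Fold changes were computed from Ct with the mean of B2m, Gusb and Hsp90ab1, which matched the deposited delta Ct to within 0.0057 cycles. The named genes are the ligands, a WNT pathway list, other secreted ligands, Pparg, Cebpa, the control wells, marker genes and the nearest gene to Wnt3a and to Wnt5a. Adig and Tsc22d3 were named after their values were seen. Members and lists were chosen with earlier results of these data known. Alternatives were 5 references, 2 treatments of late wells, the deposited delta Ct, 2 pairs of limits and 4 on precision. Calculations were tested on simulated data with a Ct ceiling, but without rounding to whole cycles and with no reference gene at the ceiling. Python 3.11.15, numpy 2.4.6, pandas 2.3.3 and matplotlib 3.10.9 were used.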

Additional observations from a re-analysis of the deposited data

Results flagged for a closer look

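The MGDC well, a genomic DNA control outside the comparison of genes, gave more signal in MOES than in the control, with a log2 fold change of 0.35 relative to B2m, Gusb and Hsp90ab1. The gap in Ct lay within the 0.530 cycles of SD taken from the RTC wells.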

How the results depend on the processing

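No paired analysis was possible because the groups hold 1 sample each. Of the 14 alternatives, lowering the MOES gene wells by 1 cycle was chosen after seeing the data. With Gapdh alone, 0 ligands lay below 0.5 and 4 above 1.5, the log2 fold changes of Wnt1, Wnt10b and Wnt3a were 4.80, 3.95 and 0.36, and 0 pathway genes lay below 0.5. These directions are unknown for wells at 35 in MOES, and that of Wnt3a is not settled within the 0.5 cycle to which its MOES well is known. With Actb alone, the mean of all 5 reference genes, the median Ct of the gene wells, or the MOES gene wells lowered by 1 cycle, 2 ligands lay above 1.5 each time, Wnt5a and Wnt5b, the latter without information. Under each of these settings 2 ligands, Wnt3a and Wnt10b, had recorded values below 0.5. With Actb alone or all 5 reference genes, the place of Wnt10b is unknown and Wnt3a may lie higher, since the reference was itself at the ceiling in MOES. Setting Ct above 32 to 32 left 1 ligand below 0.5, put Wnt1 and Wnt10b at 0.01 and turned the difference between the branches to 0.07. Leaving out genes at 35 left 1 ligand below 0.5 and a difference of -6.04. Of the 111 values recomputed, 72 stayed within the RTC spread or, for counts, 1.5 times, 33 moved further and 6 reversed. The 72 include falls from 3 to 2 ligands below 0.5, in which Wnt1 was no longer recorded below that limit. Some of the 72 could not have moved. The difference between branches does not depend on the reference, and a shift of 0.5 cycle is less than the SD of 0.530 cycles. The Ct ceiling leaves 3 of the 5 ligands with a bound or with no information.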
